A study of Mus musculus with 16 samples.

Results

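The 30 genes described here make, take up, move and export cholesterol, and were chosen by symbol from the 45777 genes of the deposited table. They comprise 19 enzymes of the synthesis pathway, 8 genes of SREBP control, uptake and transport, and 3 genes of efflux that liver X receptors (LXR) switch on. Ear skin of wild-type C57BL/6 mice was sequenced in 3 libraries from mice that received anti-OSM, an antibody against the cytokine oncostatin M, and in 3 from mice that received anti-Ly6G, an antibody used for neutrophil depletion. Both ears of all 6 received 50 µM MC903 (calcipotriol, a vitamin D analogue that inflames skin in the manner of atopic dermatitis) in 20 µL of ethanol daily for 10 days. Each anti-OSM dose was 20 µg, given into the skin every other day. Each anti-Ly6G dose was 200 µg, given into the peritoneum 2 days ahead of MC903 and again 1 and 4 days into it. The protocol of these libraries does not name ovalbumin, which the design text of the series does. The sources used here do not give the age or sex of the mice or name an isotype antibody. The other 10 labelled libraries, of control ears and of ears with MC903 but no antibody, are not analysed here, so each difference is between the antibody groups and does not say which of them moved.

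Cells build cholesterol by joining acetyl-CoA units into isoprenoids, condensing these into squalene, closing squalene to lanosterol and trimming lanosterol to cholesterol. The transcription factor SREBP2 turns on most of these enzymes when sterols run low; SCAP carries it out of the endoplasmic reticulum, and the INSIG proteins hold SCAP back when sterols are plentiful. LXR act in the opposite situation, and their targets export sterol from the cell or limit its uptake. In skin, keratinocytes and sebaceous glands make much cholesterol, which is part of the lipid barrier of the stratum corneum.

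Total counts were 52163179 to 59063578 in the anti-OSM libraries and 59381146 to 64122588 in the anti-Ly6G libraries. All 10 keratinocyte markers checked were detected, as were all 10 of skeletal muscle and 7 of 8 of cartilage; the eighth, Matn1, had at most 5 counts in any library and was not tested. Along the first principal component the anti-OSM libraries had scores of 16.6 to 23.3, anti-Ly6G replicates 1 and 2 of -25.7 and -25.4, and anti-Ly6G replicate 3 of -10.2, so that replicate 3 was the least distant of its group.

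With anti-OSM, transcripts of most cholesterol synthesis enzymes were lower than with anti-Ly6G, and 1 transport gene and 1 efflux gene were called higher. Of the 19 enzymes, 13 were lower, 0 were higher and 6 did not pass, at a median log2 fold change of -0.40. Across all 19915 genes tested, 6.27% were lower and 5.81% higher, at a median of 0.01. SREBP control, uptake and transport had 2 lower (Srebf2 and Insig1) and 1 higher (Npc2) of 8, at a median of -0.18. The efflux genes had 0 lower and 1 higher (Abcg1) of 3, at a median of 0.43. No enzyme was higher and no efflux gene lower in DESeq2, in limma-voom or in edgeR at an unadjusted p under 0.05 either (0 in each). Of all tested genes, DESeq2 called 8.77% lower and 8.31% higher, limma-voom called 5.92% lower and 5.69% higher, and 14.4% were lower and 14.7% higher in edgeR at an unadjusted p under 0.05. All 30 genes passed the filter on low counts, so 15 were lower, 2 higher and 13 did not pass in edgeR's quasi-likelihood test. The share called higher was close to the 5.81% of all tested genes. The differences were moderate in size: log2 fold changes ran between -0.68 for Hsd17b7 and 0.59 for Abcg1, and none of the 30 reached a 2-fold difference. These are bulk libraries, in which fewer cells of a type and less RNA per cell cannot be told apart.

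**Figure D1:**
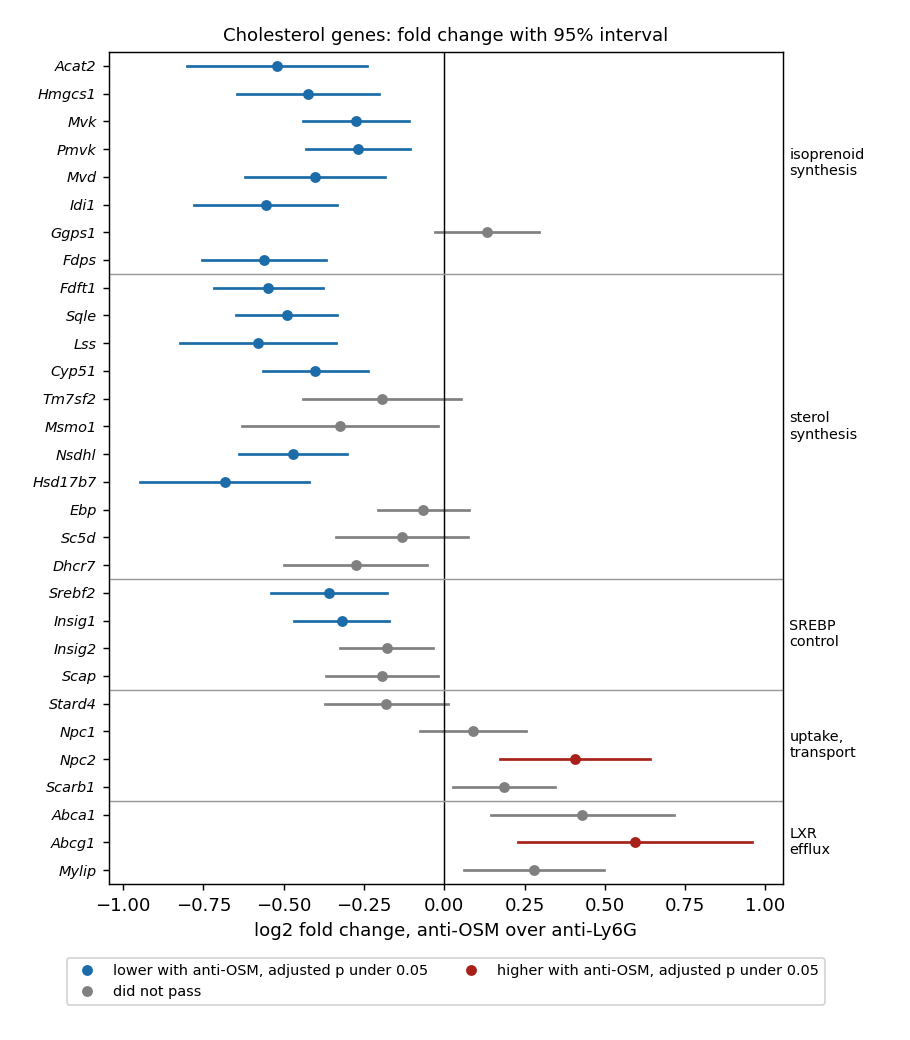
Log2 fold change of each of the 30 genes, anti-OSM over anti-Ly6G, with its 95% interval as a bar; genes are grouped by role, and colour marks those past an adjusted p of 0.05. The 13 enzymes that passed lie left of 0, while Npc2 and Abcg1, the 2 genes called higher, lie right of it.

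Levels per transcript length spanned more than an order of magnitude among the 30 genes. On the authors' TPM scale, the highest levels were those of Fdps (248 TPM with anti-OSM and 371 TPM with anti-Ly6G), Hmgcs1 (262 TPM with anti-OSM and 356 TPM with anti-Ly6G) and Msmo1 (241 TPM with anti-OSM and 306 TPM with anti-Ly6G). The lowest were those of Abcg1 (14.8 TPM with anti-OSM and 10.0 TPM with anti-Ly6G), Tm7sf2 (14.5 TPM with anti-OSM and 16.8 TPM with anti-Ly6G) and Ggps1 (16.7 TPM with anti-OSM and 15.6 TPM with anti-Ly6G). The summed level of the 19 enzymes was 1592 to 1933 TPM with anti-OSM and 2237 to 2518 TPM with anti-Ly6G, ranges that did not overlap. The 3 efflux genes together held 89 to 102 TPM with anti-OSM and 60 to 81 TPM with anti-Ly6G, and the ranges did not overlap in that case either. Groups did not overlap in CPM, which are read counts divided by TMM-scaled library sizes, for 15 enzymes lower and 1 higher, and for the 3 efflux genes higher; 35.0% of all tested genes had no overlap in either direction.

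**Figure D2:**
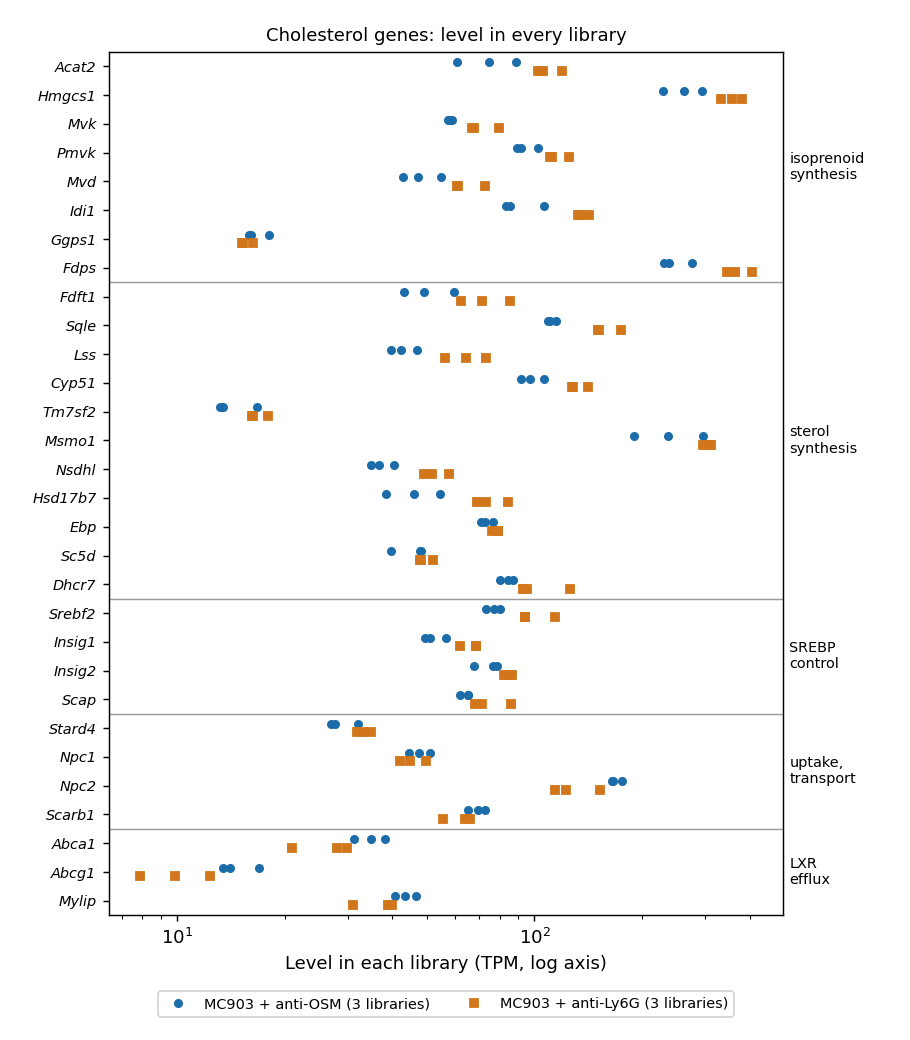
Level of each of the 30 genes in every library in the authors' TPM values on a log axis, with circles for the 3 anti-OSM libraries and squares for the 3 anti-Ly6G libraries. Most enzymes have their circles left of their squares, and the 3 efflux genes have them on the right; Fdps and Hmgcs1 stand highest and Abcg1 lowest.

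In the isoprenoid part of the pathway, 7 of 8 genes were lower with anti-OSM. These 7 lead from acetyl-CoA to farnesyl diphosphate, and the other, Ggps1, draws on that product. Fdps (gene ID 110196, chromosome 3, 89093588 to 89101967, minus strand, GRCm38), which makes farnesyl diphosphate, had 166, 141 and 148 CPM with anti-OSM, against 227, 239 and 206 CPM with anti-Ly6G (log2 fold change -0.56, SE 0.08, adjusted p = 0.00821), so that every anti-OSM library lay below every anti-Ly6G library. Idi1, the isomerase that readies the isoprene unit for chain growth, had 145, 119 and 117 CPM with anti-OSM, against 202, 176 and 182 CPM with anti-Ly6G (log2 fold change -0.56, SE 0.10, adjusted p = 0.0127). Its groups were also fully apart, with anti-OSM replicate 1 the highest of its group. Hmgcs1 (gene ID 208715, chromosome 13, 119690351 to 119708260, plus strand), the HMG-CoA synthase at the entry to the pathway, had 491, 446 and 394 CPM with anti-OSM, against 619.7, 619 and 548 CPM with anti-Ly6G (log2 fold change -0.42, SE 0.10, adjusted p = 0.0275). Its groups were apart, but the spread among its anti-OSM libraries was wider than the gap to the lowest anti-Ly6G library.

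Acat2, the thiolase that joins acetyl-CoA units, had 87.9, 75.7 and 61.9 CPM with anti-OSM, against 108, 115 and 100.2 CPM with anti-Ly6G (log2 fold change -0.52, SE 0.12, adjusted p = 0.0312). It shares 97.7% of 1477 aligned transcript bases with its neighbour Acat3, so its counts may include reads of that copy and are uncertain. The mevalonate kinases had smaller fold changes, while that of the decarboxylase was close to that of Hmgcs1. Whether these genes differed from each other in their change was not tested. Mvd, the decarboxylase, averaged 41.4 ± 4.34 CPM with anti-OSM and 54.6 ± 4.56 CPM with anti-Ly6G (log2 fold change -0.40, SE 0.10, adjusted p = 0.0312; SD, n = 3 libraries each). Mvk, the mevalonate kinase, averaged 48.6 ± 0.554 CPM with anti-OSM and 58.8 ± 4.69 CPM with anti-Ly6G (log2 fold change -0.27, SE 0.07, adjusted p = 0.0443), and Pmvk, which adds the next phosphate, 54.1 ± 3.24 CPM with anti-OSM and 65.1 ± 3.41 CPM with anti-Ly6G (log2 fold change -0.27, SE 0.07, adjusted p = 0.0448). Ggps1, which draws farnesyl diphosphate into geranylgeranyl diphosphate for protein prenylation and away from sterols, was the 1 gene of the 8 with a positive value. It had 42.2, 38.9 and 39.5 CPM with anti-OSM, against 36.5, 35.0 and 38.5 CPM with anti-Ly6G and did not pass (log2 fold change 0.13, 95% interval -0.03 to 0.30, adjusted p = 0.255).

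Among the 11 sterol enzymes, 6 were lower with anti-OSM, and all 11 had negative fold changes. Fdft1 (gene ID 14137, chromosome 14, 63145150 to 63181687, minus strand), the squalene synthase that commits isoprenoids to sterols, had 105, 103 and 104 CPM with anti-OSM, against 161, 158 and 137 CPM with anti-Ly6G (log2 fold change -0.55, SE 0.07, adjusted p = 0.00574). The 3 anti-OSM libraries were nearly equal, and the lowest anti-Ly6G library was replicate 3. Sqle, the squalene epoxidase, had 150.1, 146 and 149 CPM with anti-OSM, against 206, 223 and 196 CPM with anti-Ly6G (log2 fold change -0.49, SE 0.07, adjusted p = 0.00644). Lss, which closes the epoxide to lanosterol, had 141, 128 and 118 CPM with anti-OSM, against 197, 213 and 166 CPM with anti-Ly6G (log2 fold change -0.58, SE 0.11, adjusted p = 0.0142). Neither gene's groups overlapped, and for both the highest library was anti-Ly6G replicate 2.

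Further down the pathway, the enzymes that strip methyl groups from lanosterol were lower in part. Hsd17b7 (gene ID 15490, chromosome 1, 169949535 to 169969242, minus strand), a sterol keto reductase, had the most negative fold change of the 30 genes, with 117, 101 and 85.7 CPM with anti-OSM, against 154, 178 and 156 CPM with anti-Ly6G (log2 fold change -0.68, SE 0.12, adjusted p = 0.0119). The fitted fold change corresponds to a difference of -37.8% relative to anti-Ly6G. Its partner Nsdhl, a sterol dehydrogenase on the X chromosome, had 42.8, 39.7 and 38.1 CPM with anti-OSM, against 53.9, 59.4 and 54.1 CPM with anti-Ly6G (log2 fold change -0.47, SE 0.07, adjusted p = 0.00954). Cyp51, the lanosterol demethylase, averaged 208 ± 12.3 CPM with anti-OSM and 274 ± 11.2 CPM with anti-Ly6G (log2 fold change -0.40, SE 0.07, adjusted p = 0.0131; SD, n = 3 each). Msmo1, the methylsterol oxidase of the same series of steps, had 259.7, 213 and 172 CPM with anti-OSM, against 270.2, 267 and 269.5 CPM with anti-Ly6G and did not pass (log2 fold change -0.32, 95% interval -0.63 to -0.02, adjusted p = 0.149). Its anti-Ly6G libraries lay close together, while its anti-OSM libraries spread widely and only replicates 2 and 3 were well below them.

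Dhcr7, Sc5d, Ebp and Tm7sf2 did not pass either. Dhcr7, which reduces the final precursor to cholesterol, had 104, 105 and 98.2 CPM with anti-OSM, against 113, 144 and 114 CPM with anti-Ly6G (log2 fold change -0.28, 95% interval -0.50 to -0.05, adjusted p = 0.102), and its anti-Ly6G mean was raised by replicate 2. Sc5d, the desaturase just before it, had a log2 fold change of -0.13 (-0.34 to 0.07) and Ebp, a sterol isomerase, -0.07 (-0.21 to 0.08), and both overlapped between groups. Tm7sf2, a sterol reductase, had -0.19 (-0.44 to 0.05). Its interval reaches as low as the values of several enzymes that passed, so a difference of that size in Tm7sf2 cannot be told from none here. The interval of Ebp does not reach the value of any of the 13 enzymes called lower. Whether these enzymes differed from the others in their change was not tested.

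In SREBP control, the factor and 1 of its retention proteins were lower with anti-OSM. Srebf2 (gene ID 20788, chromosome 15, 82147269 to 82205379, plus strand), the gene of SREBP2 and itself a target of the factor, had 179.6, 191 and 179 CPM with anti-OSM, against 229, 258 and 218 CPM with anti-Ly6G (log2 fold change -0.36, SE 0.08, adjusted p = 0.0250). Insig1, which retains SCAP and is also a target, had 71.2, 65.7 and 64.1 CPM with anti-OSM, against 80.9, 84.3 and 85.7 CPM with anti-Ly6G (log2 fold change -0.32, SE 0.07, adjusted p = 0.0198). Neither gene's groups overlapped. Insig2, a second retention protein, had 97.2, 95.9 and 87.7 CPM with anti-OSM, against 107, 106 and 105 CPM with anti-Ly6G (log2 fold change -0.18, 95% interval -0.32 to -0.03, adjusted p = 0.104), and Scap, the escort, 132, 135 and 136 CPM with anti-OSM, against 149, 169 and 142 CPM with anti-Ly6G (log2 fold change -0.19, 95% interval -0.37 to -0.02, adjusted p = 0.135). Neither passed, although in both the anti-OSM libraries lay below the anti-Ly6G libraries.

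Uptake and transport genes did not differ in 1 direction. Npc2 (gene ID 67963, chromosome 12, 84754559 to 84773112, minus strand), the lysosomal protein that hands cholesterol from degraded lipoproteins to NPC1, was higher, with 258, 261 and 282 CPM with anti-OSM, against 184, 186 and 235 CPM with anti-Ly6G (log2 fold change 0.41, SE 0.10, adjusted p = 0.0379). Anti-Ly6G replicate 3 stood between the other libraries of its group and the anti-OSM libraries. Npc1, the membrane partner of Npc2 in lysosomes, had 126, 113 and 122 CPM with anti-OSM, against 108, 120.4 and 110.3 CPM with anti-Ly6G and overlapped between groups (log2 fold change 0.09, 95% interval -0.08 to 0.25, adjusted p = 0.462). Scarb1, a receptor for high-density lipoprotein, had 86.4, 79.6 and 85.2 CPM with anti-OSM, against 68.3, 76.8 and 75.8 CPM with anti-Ly6G (log2 fold change 0.19, 95% interval 0.03 to 0.35, adjusted p = 0.121). Its groups were apart, but it did not pass. Stard4, a soluble sterol carrier induced by SREBP2, had 69.9, 69.7 and 84.0 CPM with anti-OSM, against 83.8, 82.0 and 87.6 CPM with anti-Ly6G and overlapped between groups (log2 fold change -0.18, 95% interval -0.37 to 0.01, adjusted p = 0.197).

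The 3 LXR targets had positive fold changes, and 1 of them passed. Abcg1 (gene ID 11307, chromosome 17, 31057694 to 31117984, plus strand), which exports cholesterol to high-density lipoprotein, had 37.3, 40.04 and 48.6 CPM with anti-OSM, against 22.7, 26.7 and 34.0 CPM with anti-Ly6G (log2 fold change 0.59, SE 0.16, adjusted p = 0.0480). Abca1 (gene ID 11303, chromosome 4, 53030789 to 53159988, minus strand), which loads cholesterol onto lipid-poor apolipoprotein, had 170.2, 157 and 193 CPM with anti-OSM, against 106, 134 and 145 CPM with anti-Ly6G (log2 fold change 0.43, 95% interval 0.14 to 0.72, adjusted p = 0.0605). Mylip, a ubiquitin ligase that marks lipoprotein receptors for degradation, had 57.8, 63.2 and 68.5 CPM with anti-OSM, against 45.8, 55.2 and 55.0 CPM with anti-Ly6G (log2 fold change 0.28, 95% interval 0.06 to 0.50, adjusted p = 0.0924). In each the lowest library was anti-Ly6G replicate 1 and the highest anti-OSM replicate 3, and the groups did not overlap, as for 35.0% of tested genes. DESeq2 also called Abca1 (adjusted p = 0.0108), while Abcg1 lost its call in edgeR with no filter on low counts. Of the receptors themselves, Nr1h2 (LXR beta) had 0.01 (-0.12 to 0.15) and Nr1h3 (LXR alpha) -0.28 (-0.63 to 0.08), and neither passed.

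The median level of the synthesis enzymes, though not that of every enzyme, was lower in each anti-OSM library than in any anti-Ly6G library. The median over the 19 enzymes of log2(CPM over the gene's mean in the 6 libraries) was -0.12, -0.23 and -0.30 in anti-OSM libraries 1 to 3, against 0.17, 0.25 and 0.09 in anti-Ly6G libraries 1 to 3. In the 3 anti-OSM libraries 16, 17 and 16 of the 19 enzymes lay below their own mean, and in the 3 anti-Ly6G libraries 1, 1 and 0. For the efflux genes the same median was 0.10, 0.13 and 0.35 in anti-OSM libraries 1 to 3, against -0.51, -0.17 and -0.05 in anti-Ly6G libraries 1 to 3. Anti-Ly6G replicate 3 was the library of its group nearest to the anti-OSM libraries on both measures.

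**Figure D3:**
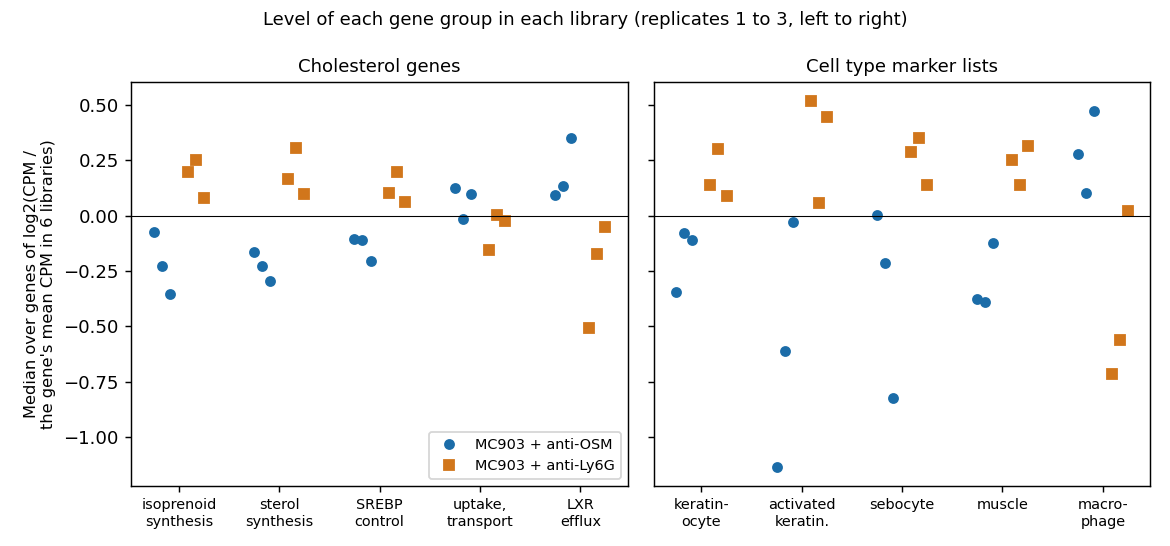
Median over the genes of each group of log2(CPM over the gene's mean CPM in the 6 libraries), with circles for anti-OSM and squares for anti-Ly6G; the left panel holds the cholesterol genes and the right panel marker lists of 5 cell types or states. On the left both synthesis groups and SREBP control have all circles below all squares and LXR efflux has them above; on the right the macrophage markers have circles above squares and the other 4 lists have them below.

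Marker lists of several cell types differed between the groups as well. In edgeR, 6.27% of all tested genes were lower and 5.81% higher. Keratinocyte markers had 4 of 10 lower, with a summed level of 21490 to 25168 TPM with anti-OSM and 26682 to 33345 TPM with anti-Ly6G; Krt14 of the basal layer had -0.55 (adjusted p = 0.0271), Krt5 -0.22 (adjusted p = 0.231) and Krt10 0.04 (adjusted p = 0.905). Activated keratinocyte markers had 4 of 8 lower, at 2869 to 5479 TPM with anti-OSM and 7588 to 11099 TPM with anti-Ly6G. Sebocyte markers had 1 of 10 lower in edgeR (Krt79, -0.62) and 6 in DESeq2 (8.77% of all tested genes), at 3438 to 4170 TPM with anti-OSM and 5106 to 6593 TPM with anti-Ly6G, a sum in which Fabp5, also made by keratinocytes, is the most abundant gene. Macrophage markers had 3 of 10 higher in edgeR and 8 in DESeq2 (8.31% of all tested genes), at 2147 to 2627 TPM with anti-OSM and 1255 to 2069 TPM with anti-Ly6G, with Csf1r at 0.91 (adjusted p = 0.0121). Skeletal muscle markers had 8 of 10 lower, at 4263 to 5068 TPM with anti-OSM and 6112 to 6926 TPM with anti-Ly6G, fibroblast markers 4 of 8 higher, at 5867 to 6479 TPM with anti-OSM and 3702 to 5066 TPM with anti-Ly6G, cartilage markers 7 of 7 tested lower, at 92 to 104 TPM with anti-OSM and 170 to 192 TPM with anti-Ly6G, and adipocyte markers 2 of 8 lower, at 346 to 433 TPM with anti-OSM and 430 to 579 TPM with anti-Ly6G. No marker in these lists was at 0 in all libraries. The part of these cell types in the differences of the cholesterol genes was not tested.

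The wider pathway outside the 30 genes was a list of 62, of which 60 were in the table and 59 tested. It had 8 lower and 2 higher, at a median of -0.17, against 6.27% lower and 5.81% higher of all tested genes. The enzyme that supplies cytosolic acetyl-CoA, Acly, was lower (log2 fold change -0.35, SE 0.09, adjusted p = 0.0399). Also lower were the lipoprotein receptor genes Vldlr (log2 fold change -0.42, SE 0.08, adjusted p = 0.0146) and Lrp1 (log2 fold change -0.45, SE 0.09, adjusted p = 0.0201), and Soat1, which esterifies cholesterol for storage (log2 fold change -0.69, SE 0.17, adjusted p = 0.0396). Sult2b1, which makes cholesterol sulfate in the epidermis, had 48.6, 50.5 and 52.4 CPM with anti-OSM, against 72.9, 76.1 and 62.5 CPM with anti-Ly6G (log2 fold change -0.48, SE 0.08, adjusted p = 0.0122). Scd2, a fatty acid desaturase listed with the LXR genes, was lower as well (log2 fold change -0.59, SE 0.12, adjusted p = 0.0189), against the sign of Abca1, Abcg1 and Mylip. That list was split, with 5 negative and 6 positive fold changes among 11 tested genes, at a median of 0.01. Scd2 was the only gene of that list called in edgeR. The 2 higher genes, Lipa and Cyp27a1, were a smaller share than the 5.81% of all tested genes. Lipa, the lysosomal lipase that frees cholesterol from lipoprotein esters, had 60.0, 50.0 and 62.9 CPM with anti-OSM, against 30.3, 38.7 and 44.1 CPM with anti-Ly6G (log2 fold change 0.61, SE 0.14, adjusted p = 0.0314). Cyp27a1, which makes a hydroxylated sterol that activates LXR, had 28.4, 28.0 and 33.8 CPM with anti-OSM, against 11.9, 12.4 and 16.7 CPM with anti-Ly6G (log2 fold change 1.14, SE 0.14, adjusted p = 0.00467). Its groups were fully apart, and its fold change was larger than that of any of the 30 genes. The prenyl branch, which uses isoprenoids for dolichol, ubiquinone and protein anchors, had 0 of 10 called in edgeR and in DESeq2, with 4 lower at an unadjusted p under 0.05 (14.4% of all tested genes). SREBP processing had 0 of 10 called in edgeR and 1 lower in DESeq2, with 2 lower and 1 higher at an unadjusted p under 0.05 (14.4% and 14.7% of all tested genes).

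RefSeq promoters (GRCm38.p6, 250 bases before to 50 after the start) matched 23 of the 30 genes, and are shown because 13 of the enzymes were lower together. Fdps, Fdft1 and Sqle, called lower, and Abcg1, the efflux gene called higher, had no matched promoter and were not searched. Npc1, Scarb1 and Stard4 were not matched either. Both strands were searched for TCACNCCAC, a core of the sterol regulatory element bound by SREBP, for ATTGG, the reverse complement of the CCAAT box bound by NF-Y, a partner of SREBP2, and for the direct repeat of AGGTCA spaced by 4 bases, bound by LXR. No printed match overlaps a match of another motif, and capitals mark the matches. The CCAAT box was in 15 of 16 enzyme promoters (93.8%), against 41.1% of the 27025 genes with a promoter. It was in 9 of the 10 promoters of enzymes called lower and in all 6 of those that did not pass, so it was present in both. A match to the sterol element core was in 1 of the 16 and in 1.44% of all genes. The LXR repeat was in 0 of the 23 and in 0.0148% of all genes. Only exact matches to the letters given were counted, so sterol or LXR sites that differ in any base were missed. With so rare a motif, 0 of 23 cannot show whether these promoters hold an LXR site. Hmgcs1 is shown as the gene with a match to the sterol element core (TCACCCCAC, from position -137 relative to the start). Mvk is shown as the enzyme with the most CCAAT boxes, 5, and Npc2 as a gene that was higher and also has 2. Mvk and Npc2 were chosen after their values were seen. The windows are chr13:119690101-119690400 (plus strand), chr5:114444019-114444318 (plus strand) and chr12:84773063-84773362 (minus strand), each printed in the direction of the gene.
Hmgcs1: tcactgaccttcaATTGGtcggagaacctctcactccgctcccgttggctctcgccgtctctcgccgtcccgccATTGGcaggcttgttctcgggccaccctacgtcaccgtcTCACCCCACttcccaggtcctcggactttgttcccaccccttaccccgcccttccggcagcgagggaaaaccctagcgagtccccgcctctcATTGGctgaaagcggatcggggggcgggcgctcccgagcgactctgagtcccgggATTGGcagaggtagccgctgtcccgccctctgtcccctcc
Mvk: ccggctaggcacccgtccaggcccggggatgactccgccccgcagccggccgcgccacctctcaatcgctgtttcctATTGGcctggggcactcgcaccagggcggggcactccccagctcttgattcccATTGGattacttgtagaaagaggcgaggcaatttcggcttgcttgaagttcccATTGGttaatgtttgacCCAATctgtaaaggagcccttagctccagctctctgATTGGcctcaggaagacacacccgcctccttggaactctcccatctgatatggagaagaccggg
Npc2: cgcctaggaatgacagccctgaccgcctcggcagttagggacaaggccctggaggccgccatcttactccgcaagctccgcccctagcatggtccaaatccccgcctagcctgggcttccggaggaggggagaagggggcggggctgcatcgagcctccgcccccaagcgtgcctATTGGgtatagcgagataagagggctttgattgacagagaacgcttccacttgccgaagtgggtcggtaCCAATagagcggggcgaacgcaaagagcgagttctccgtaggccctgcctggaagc

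The calls of 5 enzymes held without each library in turn, and the other called enzymes lost theirs in at least 1 of these fits. Whether a lost call came from the library left out or from the smaller number of libraries was not tested. Fdps (adjusted p 0.00377 to 0.0411), Fdft1 (0.00165 to 0.0314), Sqle (0.00339 to 0.0336), Nsdhl (0.00768 to 0.0438) and Hsd17b7 (0.0111 to 0.0460) kept their calls in all 6 fits that left out 1 library. Of the 19 enzymes, 5 were lower without anti-OSM replicate 2 or 3, 7 without anti-Ly6G replicate 1, 8 without replicate 2, 11 without anti-OSM replicate 1 and 13 without anti-Ly6G replicate 3. The share of all tested genes called lower was 2.06%, 2.52% and 2.27% without anti-OSM replicates 1, 2 and 3, and 3.04%, 3.64% and 7.14% without anti-Ly6G replicates 1, 2 and 3, against 6.27% with all 6 libraries. Srebf2 lost its call without any 1 anti-OSM library or anti-Ly6G replicate 1 (adjusted p 0.0138 to 0.0974 over the 6 fits), and Insig1 without anti-OSM replicate 2 or 3 (0.0296 to 0.0839). Npc2 (0.00483 to 0.136) and Abcg1 (0.00895 to 0.154) each kept their calls in 1 of the 6 fits, the one without anti-Ly6G replicate 3, in which Abca1 passed as well. The direction of each of the 30 genes was the same in all 15 other settings. Exons of 5 genes called lower overlap genes on the opposite strand in the GENCODE M21 annotation, and the sources used here do not say whether counting used strand. The overlap is 18.3% of exon bases for Fdft1 (with Ctsb), 12.1% for Hmgcs1, 9.22% for Idi1, 3.76% for Cyp51 and 3.53% for Lss, and Fdps shares 26.7% with a gene model on its own strand. Without strand, reads in the opposite-strand overlaps cannot be assigned to 1 gene, and strand does not separate the genes in the Fdps overlap. Of the genes that did not pass, Scap (13.2%), Ggps1 (5.44%) and Npc1 (4.52% with Rmc1) also overlap genes on the opposite strand. Tm7sf2 shares 12.1% with Vps51 on its own strand.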

How the data were processed

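PolyA RNA of ear skin was sequenced. The table used here covers the 6 antibody libraries and holds 3 values per gene and library, which the authors' headers name read count, FPKM and TPM. Tests used the read counts as deposited. The TPM values deposited by the authors were used to compare levels between genes, and the FPKM values deposited by the authors were not used. Tools named in the submitters' processing notes, without roles, include HISAT2 2.1.0, Trimmomatic 0.38, edgeR 3.40.2 and StringTie 2.1.3b, and the builds include mm10. Counts were fitted with edgeR 4.0.16 (R 4.3.3; filterByExpr, TMM, robust quasi-likelihood F-test, 2-sided, no covariate) over all genes, with Benjamini-Hochberg adjustment at 0.05; a standard error is the size of the fold change over the root of F. Positions are from RefSeq GRCm38.p6, the assembly that mm10 names, and exon overlaps from GENCODE M21.

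The 30 genes and the other lists were chosen with earlier results of these data known. All 30 are named, with called genes of the wider lists; 2 called genes of those lists are not reported by name here. Nothing in the labels says that replicates are separate mice, and the p-values then cover only the spread among these libraries, which may be technical. No library was treated as a duplicate, since replicates differed by more than counting noise (chi-square per gene at least 26.2). Counts were simulated for this comparison, with 19560 genes tested. Of 50 genes changed 1.5-fold, 46.0% were recovered, and of 50 changed 2-fold, 66.0%, so moderate differences were often missed there. The changed genes were drawn at random from those past the filter. These shares are therefore not specific to the 30 genes, which had at least 547 counts in each library. Alternatives were DESeq2 1.42.0, limma-voom (limma 3.58.1), other scalings and filters, a non-robust fit, a replicate block and leaving out each library. A count of 3 corresponds to 0.0468 to 0.0575 CPM.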

Additional observations from a re-analysis of the deposited data

How the results depend on the processing

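The fold change of each of the 30 genes kept its sign under the 9 other scalings, filters, tests and designs and without each library. Of 450 gene and setting pairs, 395 stayed on the same side of the threshold, 51 lost a call and 4 gained one. The 13 enzymes called lower numbered 11 to 13 under those 9 settings and 5 to 13 without each library. All 30 genes gave 13 to 15 lower under those 9 settings, and 5 to 15 lower and 0 to 3 higher without each library. Of all tested genes, 4% to 8.77% were lower and 3.23% to 8.31% higher under those 9 settings. Without each library, 2.06% to 7.14% of all tested genes were lower and 1.18% to 7.62% higher. Control, uptake and transport had 0 to 2 lower and 0 to 1 higher without each library, and the efflux genes 0 to 2 higher. With no filter on low counts 1 of the 30 genes and 0 efflux genes were higher, against 3.23% of all tested genes. DESeq2 called 2 efflux genes higher, and 14 lower and 4 higher in the wider pathway list (8.77% lower and 8.31% higher of all tested genes), where leaving out each library gave 2 to 8 lower and 1 to 4 higher; the cause was not tested. With the replicate number as a block, 4 of the 30 genes, 3 efflux genes and 4 wider pathway genes were higher, and 11 enzymes were lower. Under that block 6.65% of all tested genes were higher and 6.4% lower. Same-numbered libraries of the groups correlated at -0.02, 0.11 and 0.24 in their deviations from the group means. Differently numbered libraries correlated at -0.23 to 0.12. With 3 libraries per group, these values cannot settle whether the numbers pair the libraries. The lowest count of any of the 30 genes in a library was 547 (Tm7sf2), above the floor of 3 counts.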
